A study of Mus musculus with 6 samples.

Results

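The mitochondrial genome transcripts were taken as every gene of the deposited table whose symbol begins with mt-. This gave 37 genes of 51804 gene symbols: 13 protein-coding genes, 2 ribosomal RNA (rRNA) genes and 22 transfer RNA (tRNA) genes, which are reported apart. They were measured by RNA sequencing of mouse kidney in 6 libraries. The 3 labelled knockout libraries have the genotype Ccnb1f/f;Cdh16-Cre, and the 3 control libraries have Ccnb1f/f. Both groups therefore carry floxed alleles of Ccnb1, which encodes cyclin B1, and by the labels they differ by the Cre transgene. The Cdh16 promoter is active in renal tubular epithelium, so vessels, stroma and immune cells of a whole kidney keep an unrecombined Ccnb1. The study's design text asks what loss of cyclin B1 from tubular epithelium does to the kidney. Age, strain, the floxed exons and whether the replicates are separate mice were not given in the sources used here, so the p-values speak only for the spread among these 6 libraries, some of which may be technical. Ccnb1 itself had 18, 15 and 11 counts in labelled knockout libraries 1 to 3 and 11, 17 and 7 in control libraries 1 to 3 (log2 fold change 0.34, SE 0.46). It was not lower in the libraries labelled knockout, and at such counts, with the floxed exons unknown, it does not check the labels. Over the whole table, edgeR's quasi-likelihood test called 2 genes, named here after their values were seen. Kap, the kidney androgen-regulated protein, was at 0 counts in all 3 labelled knockout libraries and at 270761, 172207 and 284320 in the controls (adjusted p = 0.00105), and Mcm6, a subunit of the replicative helicase, was higher in the labelled knockout libraries (log2 fold change 3.29, SE 0.30, adjusted p = 0.0331). What else besides the Cre transgene sets the groups apart was not tested. The libraries held 16061435 to 21261226 estimated counts. The markers of kidney were present in every library: the 9 proximal tubule markers summed to 17354 to 20725 CPM (counts relative to library size) and the 5 thick limb markers to 7144 to 8920 CPM.

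The mitochondrial genome is a small circle that encodes core subunits of the respiratory chain, together with the rRNAs and tRNAs that translate them inside the organelle. It is transcribed from both strands as long precursors, which are cut mostly at the tRNAs that lie between the other genes. mt-Nd6 is the protein-coding gene on the light strand and the other protein-coding genes are on the heavy strand. Kidney tubules, above all the proximal tubule and the thick limb, are rich in mitochondria, since salt and solute transport there uses much ATP. Stretches of mitochondrial DNA have also been copied into nuclear chromosomes during evolution, and reads from a mitochondrial gene can match such a copy.

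Several members have near-identical nuclear copies, whose sequences are given first because the counts below are read beside them. In the GENCODE M21 annotation of GRCm38, chromosome 1 holds 7 annotated copies in a row on the minus strand between 24611535 and 24616197. They are Gm29216, Gm28661, Gm10925, Gm28437, Gm28438, Gm10222 and Gm28439, which match mt-Co1, mt-Co2, mt-Atp6, mt-Co3, mt-Nd3, mt-Nd4l and mt-Nd4 in the order of the mitochondrial genes. Over 4149 compared bases, 7 differed, which is an identity of 99.8%. The copies of mt-Co2, mt-Atp6, mt-Co3, mt-Nd4l and mt-Nd4 had no difference in the compared bases. The gene and copy of mt-Nd3 differed by 1 base of 345, T3C, with positions counted from 1 at the gene's first base and the mitochondrial base named first. The first 60 bases of mt-Nd3, at 9459 to 9518 of the mitochondrial chromosome (MT), and of its copy are shown because this capital letter is the only difference over 345 bases.
mt-Nd3: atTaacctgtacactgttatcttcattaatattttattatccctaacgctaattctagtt
Gm28438: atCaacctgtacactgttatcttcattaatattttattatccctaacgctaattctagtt
The copy lies at chr1:24613060-24613119 on the minus strand, written 5′ to 3′ along the gene.

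The copy of mt-Co1 begins within the gene, at base 1054 of 1545, and 486 of its 492 bases were identical to the gene. All 6 differences lay between bases 1056 and 1066, at the border of the copied stretch. Bases 1054 to 1113 of mt-Co1 (MT 6381 to 6440) and the matching 60 bases of Gm29216 (chr1:24616138-24616197, minus strand) are shown with the differing bases in capitals.
mt-Co1: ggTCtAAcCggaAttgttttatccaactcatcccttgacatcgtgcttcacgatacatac
Gm29216: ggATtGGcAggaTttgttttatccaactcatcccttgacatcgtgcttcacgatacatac
The copy of mt-Nd4 ends before the gene does and leaves 502 gene bases without a counterpart. No copy of mt-Atp8 is annotated. A gap of 233 bases lies between the copies of mt-Co2 and mt-Atp6, and the stretches they match on the mitochondrial chromosome are as far apart. mt-Atp8, at MT 7766 to 7969, begins within that gap. Its last 43 bases overlap mt-Atp6 and so lie in the stretch that Gm10925 matches. The chromosome 1 sequence in that gap was not analysed here.

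Genes also overlap each other on the mitochondrial genome, which limits which of them a read can be given to. mt-Atp8 and mt-Atp6, subunits of the ATP synthase, share 43 bases at MT 7927 to 7969, shown in capitals with 10 flanking bases on each side.
mt-Atp8 and mt-Atp6: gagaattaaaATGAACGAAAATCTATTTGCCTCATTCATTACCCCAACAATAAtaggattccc
mt-Nd5 and mt-Nd6 end in each other on opposite strands and share 14 bases at MT 13552 to 13565. Their shared bases are the capitals in the next line, written along the heavy-strand gene.
mt-Nd5 and mt-Nd6: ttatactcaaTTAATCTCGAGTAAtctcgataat
Whether the counting used strand was not given in the sources used here, so counts of mt-Nd6 cannot be told apart from counts of RNA antisense to it.

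Each gene was cut into every window of 50 bases, and a window was called shared where it occurred on either strand in any other of the 141730 GENCODE M21 transcripts. mt-Rnr1, mt-Nd1, mt-Nd6, mt-Cytb, mt-Atp8 and all 22 tRNA genes had no shared window. The share was 1.04% in mt-Rnr2, 7.61% in mt-Nd5 and 8.19% in mt-Nd2. It was 51.1% in mt-Co1 and 62.2% in mt-Nd4. It reached 98.0% in mt-Nd3, 98.8% in mt-Nd4l, 99.5% in mt-Atp6, 99.9% in mt-Co3 and 100% in mt-Co2. With shorter windows of 31 bases, 6.55% were shared in mt-Cytb, 7.36% in mt-Nd6, 7.47% in mt-Atp8 and 10.8% in the tRNA gene mt-Ty. mt-Rnr1, mt-Nd1 and the other tRNA genes had no shared window at that length either.

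The deposited counts followed the gene order in blocks. Of the 13 protein-coding genes, 9 had counts and 4 were listed at 0 in all 6 libraries. The 4 were mt-Co1 and mt-Co3, core subunits of cytochrome c oxidase (complex IV), and mt-Atp8 and mt-Atp6 of the ATP synthase (complex V). They are neighbours along the genome apart from mt-Co2 and tRNA genes. mt-Atp6 and mt-Co3 were shared nearly in full. By contrast, at 50 bases mt-Co1 had 731 windows and mt-Atp8 all of its windows without a match in another annotated transcript. Every respiring cell uses these genes, so a listed 0 is given here as an entry of the table and no level is read from it; how the zeros arose was not tested.

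**Figure D1:**
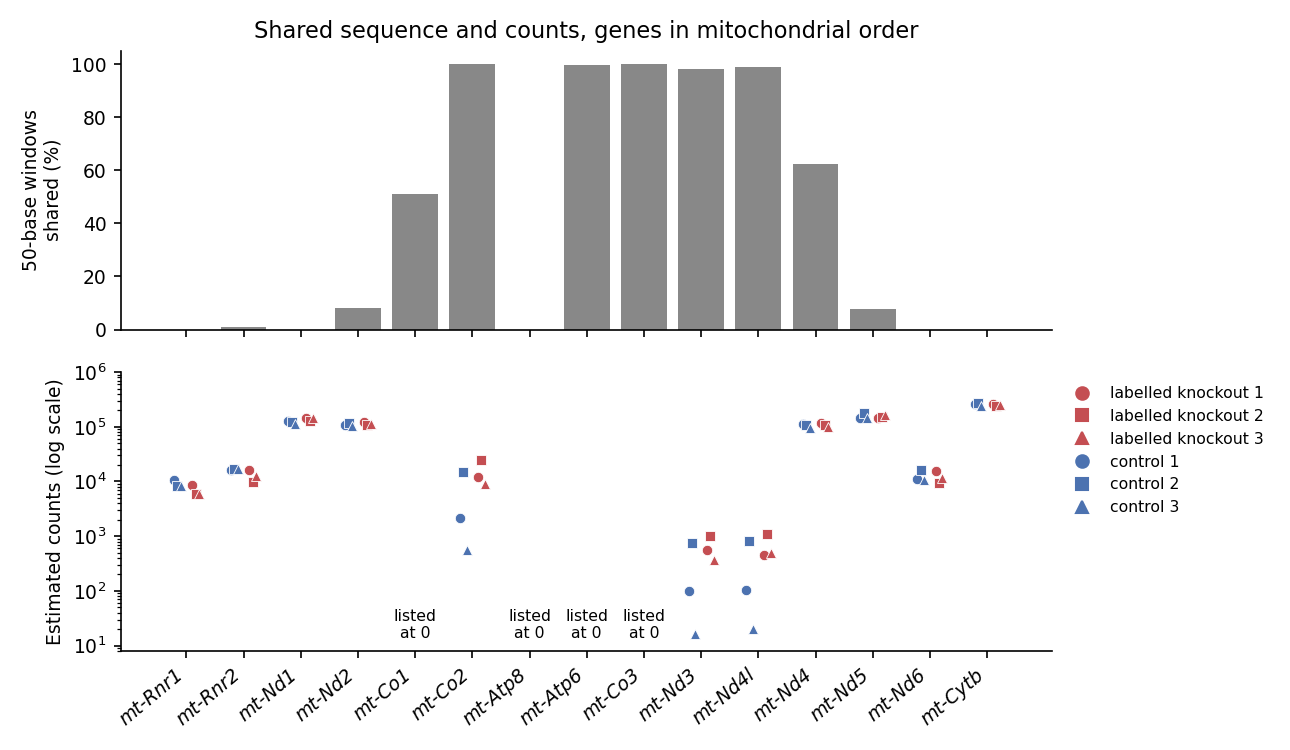
The upper panel gives, for the 13 protein-coding and 2 rRNA genes in the order of the mitochondrial genome, the percentage of 50-base windows shared with other annotated transcripts. The lower panel gives the estimated counts of each library on a log axis, where mt-Co1, mt-Atp8, mt-Atp6 and mt-Co3 are listed at 0 and mt-Co2, mt-Nd3 and mt-Nd4l spread widely between libraries.

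The 7 annotated copies on chromosome 1 themselves held few counts. Together they had 755 to 1055 counts in a library, against 94787 to 114862 for mt-Nd4 alone. Gm28437, the copy of mt-Co3, had 225 to 290 counts and Gm10925, the copy of mt-Atp6, had 163 to 212, while both genes were at 0. Gm29216, the copy of mt-Co1, had 78 to 136 counts. Gm10221 on chromosome 5, another gene of the list of nuclear copies, had 200 to 330 counts and shared no 50-base window with a mitochondrial gene.

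All 22 tRNA genes, 14 on the heavy strand and 8 on the light strand, were listed at 0 in all 6 libraries. They are 59 to 75 bases long. The shortest, mt-Ts2 (MT 11613 to 11671, a serine tRNA), and the longest, mt-Tl1 (MT 2676 to 2750, a leucine tRNA), are shown in full for the scale of these genes.
mt-Ts2: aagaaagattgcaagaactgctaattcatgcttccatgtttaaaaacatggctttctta
mt-Tl1: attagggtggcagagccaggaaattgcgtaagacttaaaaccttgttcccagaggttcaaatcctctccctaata
The read length and any selection of RNA or fragment size were not given in the sources used here, and no tRNA comparison could be made.

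Of the members with counts, those of complex III and complex I led the table. mt-Cytb (ENSMUSG00000064370, MT 14145 to 15288), cytochrome b of complex III, had the most counts of any gene in the table over the 6 libraries. Its counts were 264000, 239236 and 249231 in labelled knockout libraries 1 to 3 and 255736, 275662 and 238016 in control libraries 1 to 3. Scaled to depth, the groups overlapped: the lowest library was labelled knockout 3 at 11496 CPM and the highest control 1 at 15523 CPM. By the same ranking of summed counts, mt-Nd5 was at rank 2, mt-Nd1 at rank 3, mt-Nd2 at rank 6 and mt-Nd4 at rank 7.

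These genes encode membrane subunits of complex I, the NADH dehydrogenase at the entry of the respiratory chain. mt-Nd1 (ENSMUSG00000064341, MT 2751 to 3707) had 142686, 125125 and 145663 counts in the labelled knockout libraries and 126711, 122745 and 110638 in the controls. mt-Nd2 (ENSMUSG00000064345, MT 3914 to 4951) had 123005, 109620 and 111759 counts in the labelled knockout libraries and 109983, 115853 and 102694 in the controls. For each of these genes the groups overlapped, and by CPM the highest library was 1.33-fold (mt-Nd1) and 1.38-fold (mt-Nd2) above the lowest.

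mt-Nd4 (ENSMUSG00000064363, MT 10167 to 11544) had 114862, 106318 and 97344 counts in the labelled knockout libraries and 110328, 106897 and 94787 in the controls. mt-Nd5 (ENSMUSG00000064367, MT 11742 to 13565) had 142352, 150737 and 160840 counts in the labelled knockout libraries and 143296, 177864 and 144193 in the controls. The light-strand gene mt-Nd6 (ENSMUSG00000064368, MT 13552 to 14070) was far lower, with 15718, 9457 and 11434 counts in the labelled knockout libraries and 11108, 16373 and 10609 in the controls. Scaled to depth, its highest library was labelled knockout 1 at 911 CPM and its lowest labelled knockout 3 at 527 CPM, with the controls between them.

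Levels were compared between genes per length, as deposited FPKM (counts scaled by gene length and library total), given as mean ± SD over all 6 libraries. mt-Cytb was highest at 12399 ± 1187 FPKM, followed by mt-Nd1 at 7515 ± 789, mt-Nd2 at 6046 ± 650, mt-Nd5 at 4685 ± 424 and mt-Nd4 at 4281 ± 600 FPKM (n = 6 each). The first 4 kept this order in 6 of 6 libraries, while mt-Nd5 was above mt-Nd4 in 4 of 6, so these neighbours did not differ beyond their spread. mt-Nd6 stood below mt-Nd4 in 6 of 6 libraries, at 1337 ± 307 FPKM. mt-Co2 followed at 881 ± 813 FPKM, mt-Rnr2 at 519 ± 110 FPKM and mt-Rnr1 at 465 ± 121 FPKM. mt-Nd4l and mt-Nd3 were lowest of the genes with counts, at 94.7 ± 84.3 and 76.7 ± 67.0 FPKM. The neighbours from mt-Nd6 to mt-Rnr1 changed places in some libraries: mt-Nd6 was above mt-Co2 in 5 of 6, mt-Co2 above mt-Rnr2 in 4 of 6 and mt-Rnr2 above mt-Rnr1 in 5 of 6.

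**Figure D2:**
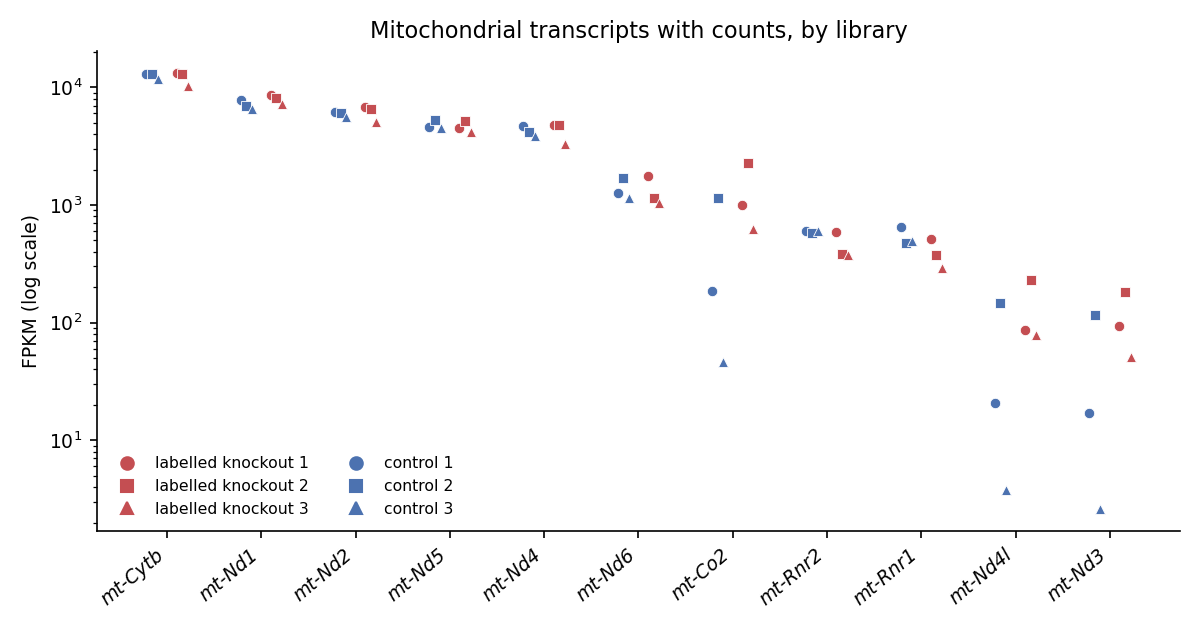
Deposited FPKM of the 11 mitochondrial genes with counts, on a log axis, with 1 point for each of the 6 libraries. Points of mt-Cytb, mt-Nd1, mt-Nd2, mt-Nd4 and mt-Nd5 lie close together, whereas mt-Co2 ranges from 46.0 to 2284 FPKM.

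The order of the levels changed when each gene's counts were divided by its unshared 50-base windows in place of its length. On that scale mt-Nd4, with 502 unshared windows, reached 11751 ± 1648 CPM per kilobase, close to mt-Cytb at 12954 ± 1240 (mean ± SD, n = 6). This scaling takes all counts to come from unshared sequence, which was not tested.

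The 3 members that had counts although nearly all of their sequence is shared were the most uneven ones. mt-Co2 (ENSMUSG00000064354, MT 7013 to 7696) encodes the copper-binding subunit of complex IV that takes electrons from cytochrome c. It had 11834, 25096 and 9045 counts in labelled knockout libraries 1 to 3 and 2165, 14641 and 556 counts in control libraries 1 to 3. The groups overlapped, because control 2 was above labelled knockout libraries 1 and 3.

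mt-Nd3 (ENSMUSG00000064360, MT 9459 to 9806), a small complex I subunit, had 560, 1012 and 374 counts in the labelled knockout libraries and 101, 750 and 16 in the controls. mt-Nd4l (ENSMUSG00000065947, MT 9877 to 10173), another small complex I subunit, had 444, 1103 and 493 counts in the labelled knockout libraries and 106, 817 and 20 in the controls. For both genes control 2 was again above 2 of the labelled knockout libraries, and control 3 was the lowest of all 6.

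Between the highest and the lowest library, CPM differed 48.7-fold for mt-Co2, 68.3-fold for mt-Nd3 and 59.6-fold for mt-Nd4l, against 1.28-fold to 2.35-fold for the other 8 members with counts. The SD of log2 CPM within groups was larger in these 3 genes than in at least 99.7% of the 9612 genes at 10 CPM or more, whose median SD was 0.161. The 3 genes ranked the libraries alike. By CPM, the order from highest to lowest was labelled knockout 2, control 2, labelled knockout 1, labelled knockout 3, control 1 and control 3 for each of mt-Co2, mt-Nd3 and mt-Nd4l. The ratio of mt-Co2 to mt-Nd3 counts stayed between 19.5 and 34.8, and that of mt-Co2 to mt-Nd4l between 17.9 and 27.8.

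The chromosome 1 copies of these genes did not spread in this way. Gm28661, the copy of mt-Co2, had 273, 200 and 227 counts in the labelled knockout libraries and 288, 212 and 226 in the controls. The ratio of mt-Co2 to Gm28661 thus ran from 2.46 in control 3 to 125 in labelled knockout 2. Gm28438, the copy of mt-Nd3, had 9 to 22 counts and Gm10222, the copy of mt-Nd4l, had 8 to 27. mt-Nd4, whose last 502 bases have no counterpart on chromosome 1, had 1104 to 1715 counts for each count of its copy Gm28439. Neither the share of a library's reads that matched in several places nor its treatment is given in the sources used here, and its part in these values was not tested.

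**Figure D3:**
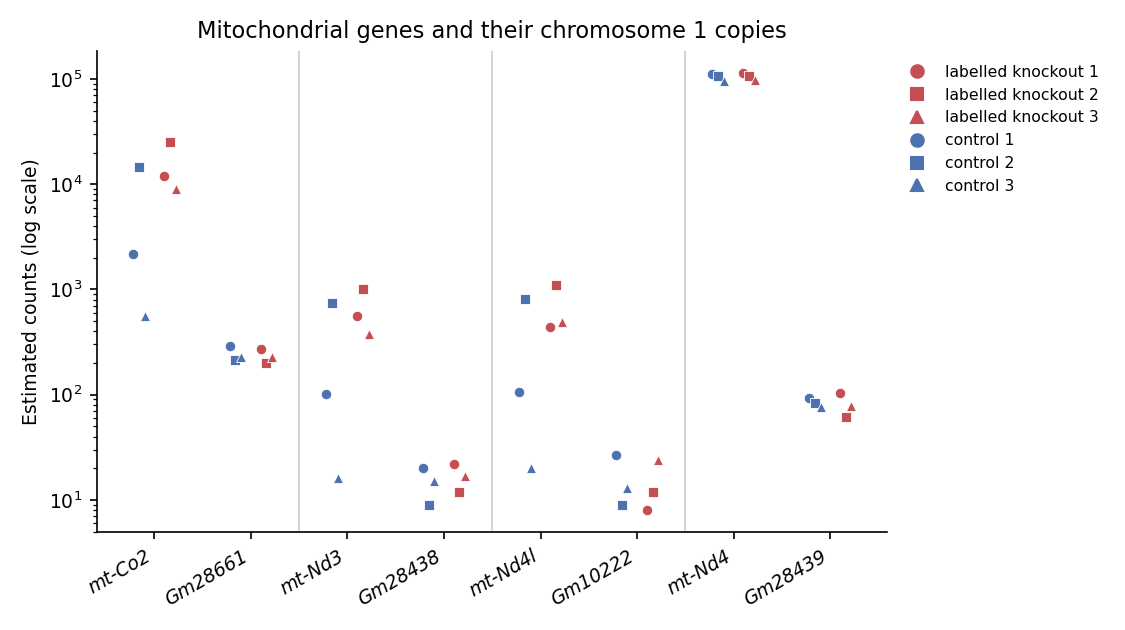
Estimated counts per library of mt-Co2, mt-Nd3, mt-Nd4l and mt-Nd4 beside those of their chromosome 1 copies, on a log axis. The copies stay within a narrow range, such as 200 to 288 counts for Gm28661, while mt-Co2 runs from 556 to 25096 and mt-Nd4 from 94787 to 114862.

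None of the mitochondrial genes changed between the groups by the test. Of the 37 members, 11 had enough counts to be tested, 9 protein-coding and 2 rRNA genes. With edgeR's quasi-likelihood test, 0 of 11 had an adjusted p under 0.05 (0.999 for each, Benjamini-Hochberg over 15017 genes), against 0.0133% of all genes tested, 0.00666% in each direction. At an unadjusted p under 0.05 the count was also 0 of 11, against 3.23% of all genes, and DESeq2 called 0 as well, against 0.0792% of the genes it gave an adjusted p. In 0 of 11 did the CPM of the groups not overlap, against 8.18% of all genes tested (4.1% higher and 4.08% lower). The log2 fold change (labelled knockout over control) was above 0 in 6 of 11, with a median of 0.02, against 49% above 0 and a median of -0.01 over all genes tested. These are bulk kidney RNA values, in which fewer cells of a type and less RNA per cell cannot be told apart.

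Among the protein-coding genes that the table counted evenly, the fold changes were small. mt-Nd1 had a log2 fold change of 0.17 (SE 0.15), between 0.11 without labelled knockout 1 and 0.27 without control 1. mt-Nd2 was at 0.05 (SE 0.16) and mt-Nd4 at 0.02 (SE 0.19). mt-Cytb was at -0.05 (SE 0.16), mt-Nd5 at -0.05 (SE 0.15) and mt-Nd6 at -0.06 (SE 0.22). The 95% intervals of these 6 genes all held 0, and the widest on each side were bounded by -0.56 for mt-Nd6 and 0.52 for mt-Nd1. The sign for mt-Nd2, mt-Nd4, mt-Nd5, mt-Nd6 and mt-Cytb turned when single libraries were left out.

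The intervals of the 3 uneven genes were wide. mt-Co2 had a log2 fold change of 1.57 (SE 0.97, 95% interval -0.68 to 3.81), which was 0.86 without labelled knockout 2 and 3.45 without control 2. mt-Nd3 was at 1.32 (SE 0.99) and mt-Nd4l at 1.25 (SE 0.98). Leaving out libraries 1 at a time moved mt-Nd3 between 0.70 and 3.42 and mt-Nd4l between 0.55 and 3.37, with control 2 giving the highest value of each when left out. With limma on log2(FPKM + 1), which averages log values, the fold changes of mt-Co2, mt-Nd3 and mt-Nd4l were 2.38, 2.29 and 2.23 on that scale, and limma called none of them.

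**Figure D4:**
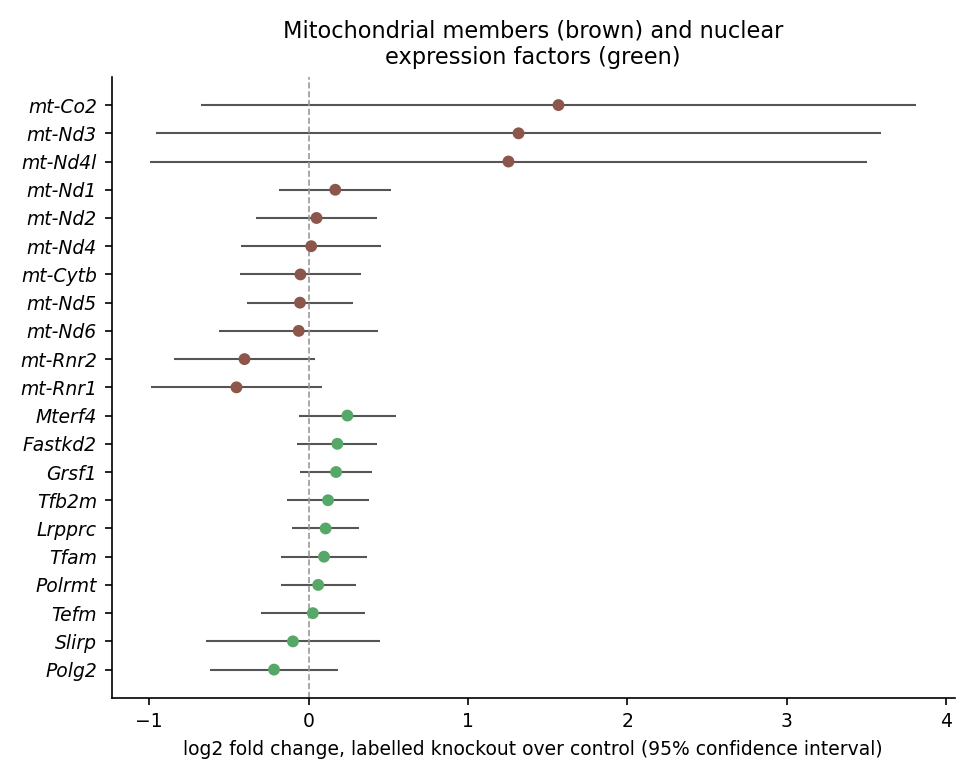
Log2 fold change (labelled knockout over control) of the 11 tested mitochondrial genes (brown) with 95% intervals from edgeR. The named nuclear genes that act on the mitochondrial genome are drawn in green. All intervals include 0, and those of mt-Co2, mt-Nd3 and mt-Nd4l are several times wider than the rest.

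The rRNAs had the lowest fold changes of the 11. mt-Rnr1 (ENSMUSG00000064337, MT 70 to 1024) encodes the small and mt-Rnr2 (ENSMUSG00000064339, MT 1094 to 2675) the large rRNA of the mitochondrial ribosome. mt-Rnr1 had 8508, 5814 and 5896 counts in the labelled knockout libraries and 10528, 8423 and 8259 in the controls. Scaled to depth, it was at 493, 367 and 272 CPM in the labelled knockout libraries and 639, 427 and 482 CPM in the controls, so labelled knockout 2 and 3 were below every control and labelled knockout 1 was above controls 2 and 3. Its log2 fold change was -0.45 (SE 0.23, edgeR unadjusted p = 0.0884), and between -0.69 without labelled knockout 1 and -0.26 without labelled knockout 3.

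mt-Rnr2 had 16184, 9706 and 12525 counts in the labelled knockout libraries and 16184, 16886 and 16656 in the controls. Scaled to depth, it was at 938, 612 and 578 CPM in the labelled knockout libraries and 982, 856 and 973 CPM in the controls, so labelled knockout 2 and 3 were below every control and labelled knockout 1 was above control 2. Its log2 fold change was -0.40 (SE 0.19, edgeR unadjusted p = 0.0703), and between -0.65 without labelled knockout 1 and -0.27 without labelled knockout 3. Neither rRNA passed the threshold. The log2 ratio of mt-Rnr2 to mt-Rnr1 counts was 0.92 ± 0.17 in the labelled knockout libraries and 0.88 ± 0.22 in the controls (SD, n = 3 each), a difference within the spread (exact permutation p = 0.8).

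Per length, both rRNAs were below most of the mRNAs, although in a cell the rRNAs are the more abundant RNAs of the organelle. mt-Rnr2 at 519 FPKM was under mt-Cytb at 12399 FPKM in all 6 libraries. Whether rRNA was removed or polyadenylated RNA selected before sequencing was not given in the sources used here, so the rRNA levels describe what was left in these libraries.

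As a share of the library, the mitochondrial transcripts did not differ beyond the spread between libraries. All members together took 4.85%, 4.88% and 3.78% of the counts in labelled knockout libraries 1 to 3 and 4.60%, 4.61% and 4.11% in control libraries 1 to 3. The means were 4.51% ± 0.624 and 4.44% ± 0.284 (SD, n = 3 each; two-sided exact permutation p = 1). The highest and the lowest library were both labelled knockout. The mRNA genes took 4.40% ± 0.606 and 4.29% ± 0.282 (exact permutation p = 0.7), and the rRNA genes 0.109% ± 0.0299 and 0.144% ± 0.0105 (exact permutation p = 0.3). With 3 libraries against 3 the smallest p of this test is 0.1. The differences of 0.07 and 0.10 percentage points for all members and for mRNA depended on the scale. They were 0.00588 and 0.0437 without Kap in the library total, and 0.440 and 0.493 with FPKM in place of counts (exact permutation p = 0.6 for both FPKM values). These shares leave out whatever the 4 genes listed at 0 contributed.

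The amount of rRNA against mRNA within the organelle's transcripts separated the groups by the smallest p that the design allows. The log2 ratio of rRNA to mRNA counts was -5.05, -5.63 and -5.42 in labelled knockout libraries 1 to 3 and -4.83, -5.04 and -4.82 in control libraries 1 to 3. Every labelled knockout library was below every control, by little where labelled knockout 1 (-5.05) meets control 2 (-5.04). The difference was -0.47 (exact permutation p = 0.1, adjusted p = 0.6 over 12 values of composition). Because this test cannot give a p below 0.1 here, it could not pass the threshold, with or without the correction. It therefore does not decide whether the groups differ.

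The summed counts of the cytosolic rRNA list did not overlap between the groups, though single genes of it did. No test was run on the sum. The list of cytosolic rRNA genes, with 4 of its 6 members in the table and 3 above 0 in every library, summed to 137 to 193 CPM in the labelled knockout libraries and 288 to 470 CPM in the controls. AY036118, which overlaps Gm42418 on the opposite strand of chromosome 17, made up the largest part of that sum, and without strand the counts of these overlapping genes cannot be told apart. Its CPM was 138, 129 and 68.0 in the labelled knockout libraries and 425, 222 and 213 in the controls. The log2 fold change was -1.36 (SE 0.34), which did not pass edgeR's adjusted threshold. Of the 3 tested genes of the list, AY036118 was the 1 without overlap, against 8.18% of all genes tested. Gm26917 was at -0.54 (SE 0.38) and Gm42418 at 0.17 (SE 0.36), both with overlapping groups. The part of rRNA carried over into the libraries in the mitochondrial rRNA values was not tested.

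The share of mt-Cytb among the mitochondrial mRNA counts also kept the groups apart. It was 32.4%, 31.2% and 31.7% in the labelled knockout libraries and 33.7%, 33.1% and 33.9% in the controls. The difference was -1.84 percentage points (exact permutation p = 0.1, adjusted p = 0.6 over 12 values). Without the uneven mt-Co2, mt-Nd3 and mt-Nd4l in the mRNA counts it was -1.41, an alternative chosen after seeing the data. The shares among mRNA counts leave out whatever the protein-coding genes listed at 0 contributed. mt-Co2 took 1.96% ± 1.15 in the labelled knockout libraries and 0.708% ± 0.917 in the controls, with overlapping groups (exact permutation p = 0.3). mt-Nd1 took 17.4% ± 1.12 and 15.7% ± 0.962 of the mRNA counts (exact permutation p = 0.2). The light-strand gene against the heavy-strand mRNAs had a log2 ratio of -6.03 ± 0.33 in the labelled knockout libraries and -5.91 ± 0.24 in the controls (exact permutation p = 0.5).

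**Figure D5:**
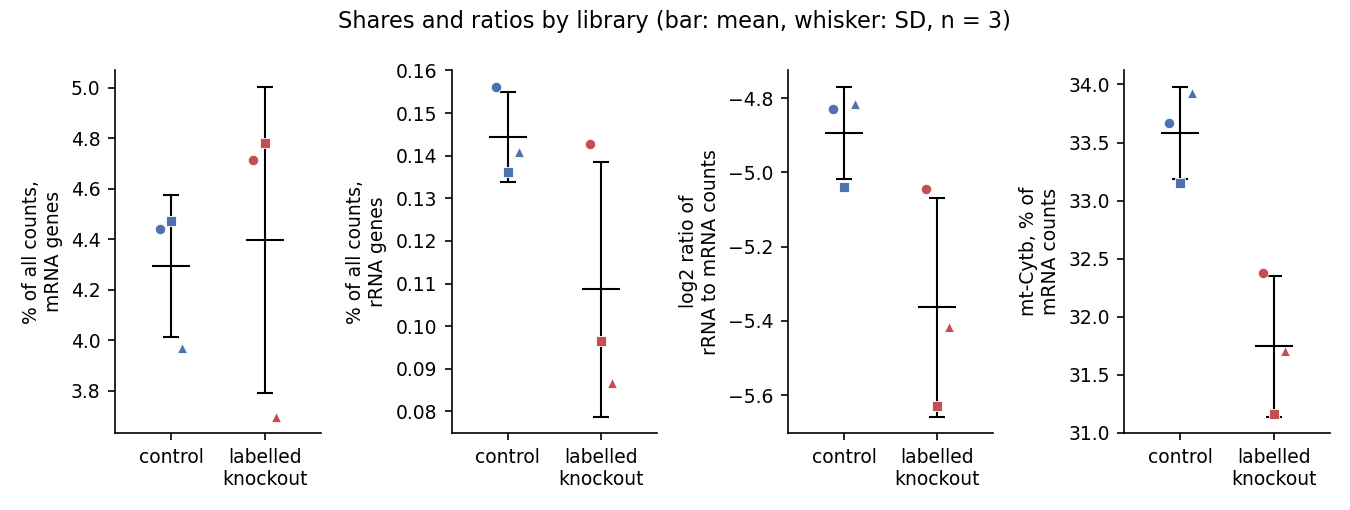
The panels give values per library with group means. From left to right they show the percentage of all counts on mitochondrial mRNA genes and on mitochondrial rRNA genes. The log2 ratio of rRNA to mRNA and the share of mt-Cytb among mitochondrial mRNA counts follow. The groups overlap in both percentages of all counts. They do not overlap in the log2 ratio and the mt-Cytb share, where exact permutation p = 0.1 is the smallest that 3 against 3 libraries can give.

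Each respiratory complex with a mitochondrial subunit is completed by subunits encoded in the nucleus, and these were set beside the members. For complex I, the 7 mitochondrial genes summed to 29117 ± 3714 CPM in the labelled knockout libraries and 28207 ± 1751 CPM in the controls, and the 36 nuclear genes to 4445 ± 270 and 4182 ± 307 CPM (SD, n = 3 each). The log2 ratio of the sums was 2.71 ± 0.13 and 2.75 ± 0.12 (exact permutation p = 0.7). For complex III, mt-Cytb against the 9 nuclear genes gave 2.66 ± 0.17 and 2.78 ± 0.11 (exact permutation p = 0.6).

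For complex IV the mitochondrial sum rested on mt-Co2, since mt-Co1 and mt-Co3 were listed at 0. Its log2 ratio to the 12 nuclear genes was -2.23, -0.85 and -2.63 in the labelled knockout libraries and -4.66, -1.76 and -6.47 in the controls (exact permutation p = 0.3). The difference of 2.39 was 1.30 without control 3 (exact permutation p = 0.5) and 3.66 without control 2 (exact permutation p = 0.1). Control 2 was the control that overlapped the labelled knockout libraries. The nuclear sum itself was 2890 ± 294 CPM and 2884 ± 279 CPM, a far smaller spread than that of mt-Co2. For complex V no ratio could be formed, since mt-Atp6 and mt-Atp8 were listed at 0 while the 17 nuclear genes summed to 8874 to 10155 CPM.

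None of the tested nuclear genes that copy, transcribe, process and translate the mitochondrial genome passed the test, which 2 genes of the whole table passed. Of 67 genes listed, 66 were tested and edgeR called 0, against 0.0133% of all genes tested. At an unadjusted p under 0.05 the count was also 0, against 3.23%. The log2 fold change was above 0 in 42 and below 0 in 24, against 49% of all genes above 0. The median was 0.04 against -0.01 over all genes tested. The groups did not overlap in 6 of the 66, against 8.18% of all genes tested. Their summed level was 2846 to 2936 CPM in the labelled knockout libraries and 2725 to 2796 CPM in the controls.

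Polrmt, the RNA polymerase of the organelle, had a log2 fold change of 0.06 (SE 0.10), with 53.3 ± 2.23 CPM in the labelled knockout libraries and 51.1 ± 4.22 CPM in the controls. It was at 0.0032 without control 2 and 0.12 without control 1. Tfam, which packages mitochondrial DNA and starts transcription, was at 0.10 (SE 0.12). Tfb2m, which opens the promoter, was at 0.12 and Tefm, the elongation factor, at 0.03. Lrpprc and Slirp form a complex that stabilises mitochondrial mRNAs, and they were at 0.11 (SE 0.09) and -0.10 (SE 0.24). The values of all 6 were within 2 SE of 0. Of the 6, Lrpprc alone had groups that did not overlap, against 8.18% of all genes tested. It was at 176, 167 and 170 CPM in the labelled knockout libraries and 154, 159 and 165 CPM in the controls.

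The 4 genes of the list with the lowest unadjusted p were Mterf4, Grsf1, Fastkd2 and Polg2. Mterf4, which takes part in assembly of the mitochondrial ribosome, was at 14.1, 16.7 and 14.9 CPM in the labelled knockout libraries and 13.5, 12.8 and 12.3 CPM in the controls (log2 fold change 0.24, SE 0.13). Grsf1, a protein of the RNA granules where mitochondrial transcripts are processed, was at 180, 175 and 172 CPM against 149, 150 and 168 CPM (0.17, SE 0.10). Fastkd2, which binds mt-Rnr2 and mt-Nd6 RNA, was at 33.5, 34.2 and 32.2 CPM against 32.1, 26.8 and 29.3 CPM (0.18, SE 0.11). In each of these the groups did not overlap, with a gap between the groups smaller than the larger of the group SDs. Polg2, the accessory subunit of the mitochondrial DNA polymerase, was at -0.22.

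Markers of other cell types were read in the same libraries, since cell types differ in mitochondrial content. The summed proximal tubule markers were 17354 to 20131 CPM in the labelled knockout libraries and 17818 to 20725 CPM in the controls. The thick limb markers were at 7890 to 8552 CPM and 7144 to 8920 CPM, so both sums overlapped. Of 9 proximal tubule markers, 6 had a log2 fold change below 0 and 3 above. Of 5 thick limb markers, 4 were above 0 and 1 below. At an unadjusted p under 0.05 were 1 of the 9 and 0 of the 5, against 3.23% of all genes tested. Without overlap were 2 of the 9 and 2 of the 5, against 8.18%. The 6 macrophage markers, all above 0 in every library, summed to 128 to 167 CPM in the labelled knockout libraries and 109 to 125 CPM in the controls, without overlap. All 6 had a log2 fold change above 0, with a median of 0.22. Of these 6, 0 were at an unadjusted p under 0.05 and 1 was without overlap, against 3.23% and 8.18% of all genes tested. The 5 fibroblast markers, all above 0 in every library, summed to 84.4 to 124 CPM and 112 to 147 CPM. All 5 had a fold change below 0 (median -0.39, from -0.58 to -0.32), with 3 of 5 at an unadjusted p under 0.05 and 2 of 5 without overlap, against 3.23% and 8.18% of all genes tested, and edgeR called 0 of them after adjustment. The 5 intercalated cell and 5 endothelial markers were also all below 0, with medians of -0.11 and -0.10. None of them reached an unadjusted p under 0.05, against 3.23% of all genes tested. The 3 tested adipose markers were all below 0 (median -0.20). Of 6 erythroid markers, 5 were below 0 and 1 above (median -0.26). Among these, 1 was at an unadjusted p under 0.05 and 1 without overlap, against 3.23% and 8.18% of all genes tested. The distal tubule, principal cell, podocyte and urothelium markers held fold changes of both signs. None of these reached that unadjusted p or was without overlap, against the same shares. The part of these cell types in the mitochondrial values was not tested.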

How the data were processed

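RNA sequencing of 6 mouse kidney libraries was analysed from 1 deposited table. The authors deposited estimated counts, without normalization, and FPKM values for 128603 transcripts of 51905 gene IDs. The submitters' processing notes list GRCm38 as the build and, without saying what each did, HISAT2 2.0.1, Cuffdiff 2.2.1, cutadapt 1.9.1, bcl2fastq 2.17.1.14 and FastQC 0.10.1. The program behind the counts, its handling of reads with several matches, and the use of strand were not given in the sources used here. Per the file headers a length column is also held, which is not a unit of expression. All counts of the members lay within 0.01 of a whole number, and their deposited FPKM equalled count over length and column total to within 0.0358%. The labels' extraction protocol names kidney and cultured cells and describes quantitative PCR; the tissue label is kidney.

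Counts were summed per gene symbol and rounded. All 6 libraries entered edgeR 4.0.16 (R 4.3.3), whose quasi-likelihood test was used with TMM scaling and its default filter (minimum count 10). Group was the one model term. The test was two-sided with a threshold of 0.05 on p after Benjamini-Hochberg adjustment for 15017 genes. CPM of single genes are TMM-scaled and summed CPM of lists use library totals. Single values were compared by a two-sided exact permutation test. The depth was 16061435 to 21261226 counts per library; 3 counts, the limit a count of 0 allows for counting error alone, are 0.141 to 0.187 CPM. Sequences and shared windows came from GENCODE M21 transcripts (GRCm38), with windows of 31 and 100 bases also tried.

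All mt- mRNA and rRNA genes were named, with the tRNA genes by range and the shortest and longest shown; of the nuclear list, 6 set genes and the 4 of lowest unadjusted p. The members and lists were chosen with earlier results of these data known, and the chromosome 1 copies after values were seen. Alternatives were DESeq2 1.42.0, other scalings, no filter, limma 3.58.1 on log2(FPKM + 1) and log2(FPKM + 0.1), sums per gene ID, the replicate number as a block, and each library left out in turn. The test script was checked on simulated data.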

Additional observations from a re-analysis of the deposited data

How the results depend on the processing

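Of 536 alternative values for 42 results, 490 were counted as the same, 37 turned direction and 9 moved a count. For fold changes, same meant equal direction and side of the threshold (152 of 165 for members, 146 of 150 for nuclear genes). For shares and ratios it meant equal direction alone (156 of 176), whatever the p. A number of genes called was the same if it was close, such as 3 against 2 without labelled knockout 2. No mitochondrial gene was called in any alternative run; the lowest adjusted p was 0.582, without labelled knockout 1. Over every gene, edgeR called 2; DESeq2 called 15, library totals without TMM 1, no filter 5, limma on log2(FPKM + 1) 1 and on log2(FPKM + 0.1) 1, and leaving out 1 library gave 1 to 6. The causes were not tested.

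Replicate numbers were not taken as pairs: deviations of same-numbered libraries correlated at 0.128, -0.109 and 0.134. Labelled knockout 1 and 3 each correlated best with the control of their own number, and labelled knockout 2 did not. With the replicate number as a block, edgeR again called 2 genes, and the log2 fold change of mt-Nd4 was -0.00103. The share of mt-Nd2 among mRNA turned to -0.0945 percentage points with FPKM, and that of mt-Nd4 to 0.0015 without mt-Co2, mt-Nd3 and mt-Nd4l, an alternative chosen after seeing the data.

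Leaving out 1 library gave log2 fold changes of -0.0339 to 0.184 for mt-Nd2, -0.0834 to 0.184 for mt-Nd4, -0.159 to 0.0281 for mt-Nd5, -0.332 to 0.0910 for mt-Nd6, -0.121 to 0.0716 for mt-Cytb, -0.0487 to 0.114 for Tefm and -0.27 to 0.11 for Slirp. The difference in percent of counts was -0.12 to 0.43 for all members and -0.0886 to 0.452 for mRNA. Shares of mRNA differed by -0.10 to 0.33 for mt-Nd2, -0.58 to 0.34 for mt-Nd4 and -0.305 to 0.0505 for mt-Nd6. The log2 ratio differed by -0.0897 to 0.129 for mt-Rnr2 to mt-Rnr1, -0.291 to 0.0367 for light to heavy strand and -0.112 to 0.0215 for complex I.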

Other observations

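The proteins of the mitochondrial ribosome, which is built on mt-Rnr1 and mt-Rnr2, are encoded in the nucleus. Of 79 listed genes, 78 were tested and edgeR called 0, against 0.0133% of all genes tested. At an unadjusted p under 0.05 there was 1, against 3.23%. Their log2 fold change was above 0 in 62 and below 0 in 16, against 49% of all genes above 0, with a median of 0.06 against -0.01 over all genes tested, and ran from -0.14 to 0.28. Summed, they were at 3446 to 3804 CPM in the labelled knockout libraries and 3295 to 3606 CPM in the controls, so the groups overlapped. The groups did not overlap in 5 of the 78 genes, against 8.18% of all genes tested.

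Complex II has no mitochondrial subunit. Its 4 nuclear genes summed to 2027 to 2065 CPM in the labelled knockout libraries and 1829 to 1941 CPM in the controls, without overlap. edgeR called 0 of 4, against 0.0133% of all genes tested. In 1 of 4 the groups did not overlap, against 8.18% of all genes tested, and 1 was at an unadjusted p under 0.05, against 3.23%.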
